A study of Mus musculus with 52 samples.

Results

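The integrin and laminin genes of a mouse kidney epithelial cell line were described across 13 clones, in the ciliated and the non-ciliated state. The set holds every gene symbol of the deposited count tables that begins with Itga, Itgb, Lama, Lamb or Lamc and goes on with a number (Itga2b included), which gave 31 of 24421 symbols: 20 integrins, of which 12 encode alpha and 8 encode beta subunits, and 11 laminins, of which 5 encode alpha, 3 encode beta and 3 encode gamma chains. The cells were Cilia-APEX-IMCD3 cells, an immortalised line from the inner medullary collecting duct of the mouse kidney, and the study asked by RNA sequencing what homozygous missense alleles of Wdr34 and Wdr60, which encode intermediate chains of the ciliary motor dynein-2, do to the transcriptome. In ciliated cells there were 3 mutant clones (1 of Wdr60, and 2 of Wdr34 labelled 1 and 3) and 4 controls, the clones D8, H12, A4 and G7. In non-ciliated cells there were 2 mutant clones (1 of Wdr34 and 1 of Wdr60) and 4 controls, AB and the clones numbered 1, 2 and 3. The alleles made were an alanine-to-valine change in Wdr60, together with a heterozygous synonymous change, and in Wdr34 either an arginine-to-tryptophan change or a glycine-to-serine change, the latter with an unintended heterozygous change to aspartic acid at the neighbouring glycine. The labels do not say which Wdr34 allele a clone carries, and the text of the study leaves the glycine-to-serine clone out of the non-ciliated set. The labels give CRISPR base editing for every library. By the methods of the study the editor was BE4-Gam, controls received it with an empty guide vector, and lines were grown from single cells; the labels do not show whether AB, which is titled unlike the other controls, was made in this way or is 1 clone. Controls are named differently in the states, and the labels do not say whether a clone was used in both. The methods count fewer clones than the 13 labelled groups of libraries, so that some clones may have been sequenced in both states. Below, each of the 13 groups is called a clone, and a mutant genotype in a state was seen in 1 clone, or in 2 for Wdr34 in ciliated cells. Ciliation was induced by serum starvation according to the methods, whereas the labels give 10% serum for every library, and the states also differ in the time of sequencing, so that state, serum and sequencing round cannot be told apart.

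Integrins are transmembrane receptors made of 1 alpha and 1 beta subunit, which tie the actin or keratin cytoskeleton to the extracellular matrix. Laminins are trimers of 1 alpha, 1 beta and 1 gamma chain, which form the sheet of the basement membrane and are read by the integrin alpha3, alpha6 and alpha7 chains. In epithelia, laminin-511 (Lama5, Lamb1, Lamc1) is the broad basement membrane laminin of the mature kidney tubule, and the laminin that holds the Lama3 and Lamb3 chains anchors cells through integrin alpha6beta4, the receptor of hemidesmosomes. The beta1 chain pairs with most of the alpha chains in the set, beta4 only with alpha6, and beta5, beta6 and beta8 with the alpha chain encoded by Itgav.

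Each clone was represented by 4 technical replicate libraries, 52 in all, with 14816218 to 28084979 counts each (mapped to genes). Levels are CPM, the count of a gene relative to the library's total, on 1 TMM scale for all libraries, given per clone as mean ± SD over 4 libraries. In 5 libraries the distance to the other libraries of the clone was more than 3 times that of the next library: replicate 1 of the controls H12, A4 and AB and of the non-ciliated Wdr60 clone, and replicate 4 of G7. The ciliated Wdr60 libraries fell into pairs, replicates 1 and 2 against 3 and 4. Among the markers of the labelled tissue, Aqp2, the water channel that defines collecting duct principal cells, was at 0 counts in 12 clones and at 0.0157 CPM in the non-ciliated Wdr60 clone, whereas Pax2 and Pax8, transcription factors of renal epithelium, were at 80.6 to 309.5 CPM and 150.1 to 419 CPM over the 13 clones. The 5 endothelial markers summed to at most 0.186 CPM in any clone. Differences were tested with edgeR's quasi-likelihood test with the library as the sample, and a call needed both a p-value, adjusted over all genes tested after Benjamini and Hochberg (BH), below 0.05 and a log2 fold change of 1 or more in either direction. Libraries of 1 clone are technical replicates. The fits of mutants against controls, of the states and of the interaction had no clone term. Their p-values rest on clone and library spread together and count libraries as independent. In the fits among controls, with 1 coefficient a clone, the p-values measure the spread between libraries. Clone means of log2 CPM were also compared by exact 2-sided permutation of whole clones. The smallest possible p of this permutation is 0.0286 for 3 or 4 against 4 clones and 0.0667 for 2 against 4.

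Of the 31 genes, 15 integrins and 8 laminins passed the expression filter in the fit over both states, and the other 8 were near the detection limit. Levels between genes are compared as CPM per kb of exon, averaged over the 13 clones. Itgb1, the beta chain shared by most matrix receptors, was highest at 295 CPM per kb, followed by Itga3, the alpha chain of the laminin receptor alpha3beta1, at 167. The laminin-511 genes Lama5 (56.5 CPM per kb), Lamb1 (46.8) and Lamc1 (28.9) stood close to Itgb5 (43.4), the beta chain of a vitronectin receptor. Itgb4, Lamb2 (the beta chain of laminin-521) and Itga6 followed at 16.7, 16.2 and 12.02 CPM per kb, then Lamb3 at 11.1. Itga5, the fibronectin receptor chain, lay at 6.94, Lama3 at 3.82 and the collagen receptor chain Itga1 at 2.43. Between 0.3 and 2 CPM per kb were found for Itgb6, Itga7, Itga2b, Itgb8, Itga2, Itgb2 and Itga10. Expression of the other members was lower still: Itga4, a leukocyte integrin chain, had at most 1 count in any library, Itga8, the nephronectin receptor chain of the embryonic kidney, and Lama4, an endothelial laminin, at most 2, Lama1 and Lama2, of embryonic and muscle basement membranes, at most 3, and Itga11, a fibroblast collagen receptor chain, at most 4. The most counts in any library were 23 for Itgb3 and 26 for Itgb7, which encode platelet and lymphocyte integrin chains. Compared with the spread over clones, the highest neighbours of this order, Itgb1 and Itga3, overlapped, since Itga3 ranged from 38.4 to 335 CPM per kb and Itgb1 from 209 to 393.

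**Figure D1:**
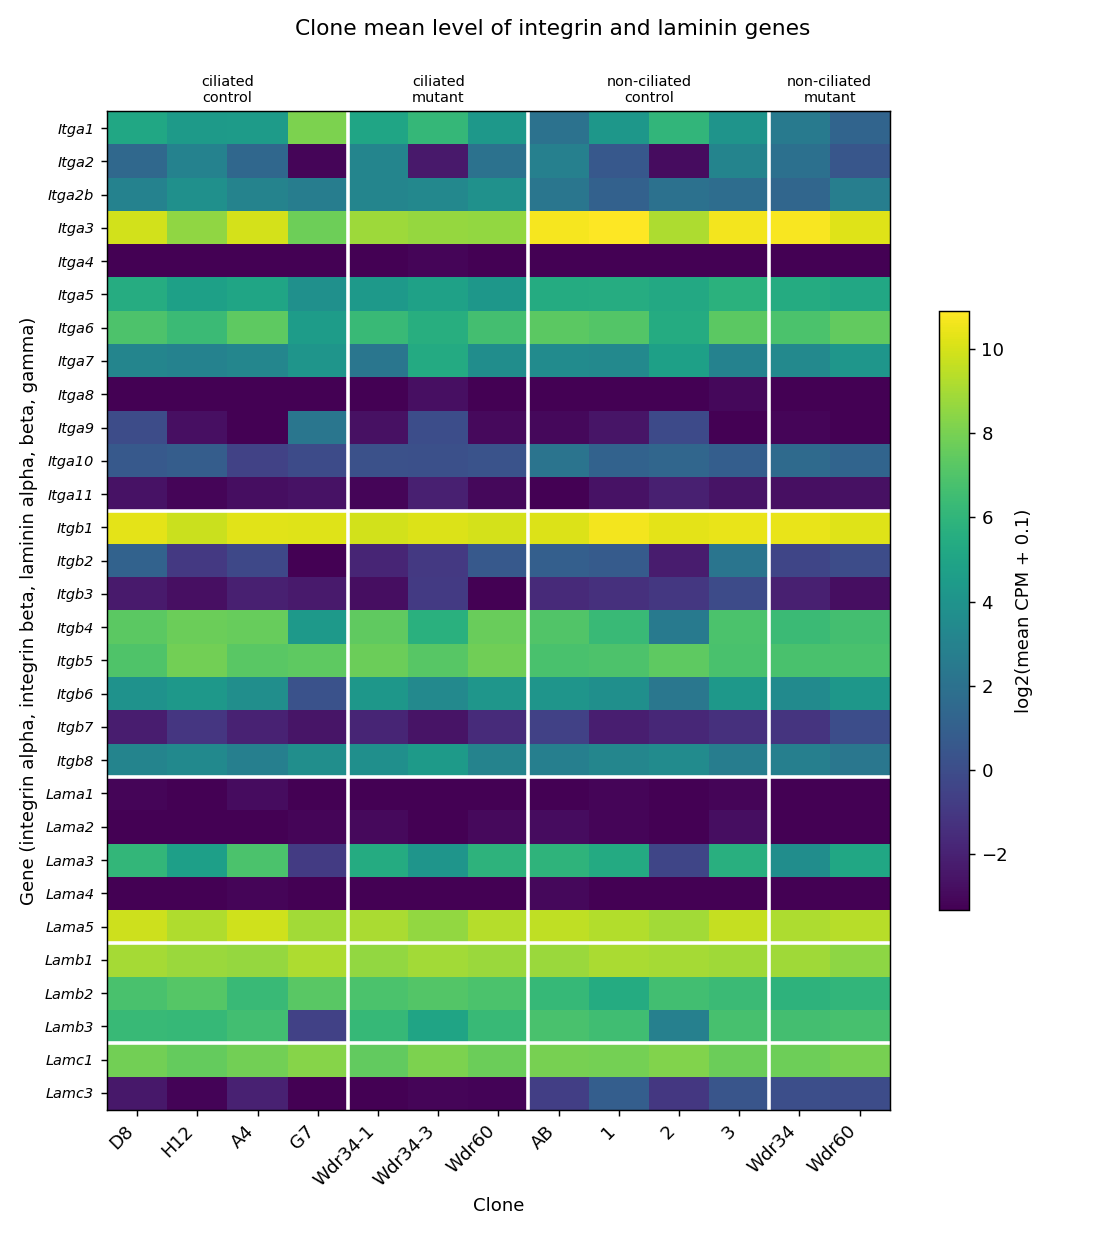
Clone mean level of the integrin and laminin genes (rows, grouped by subunit class) in the 13 clones (columns, grouped by state and genotype); the colour is log2 of the mean CPM plus 0.1. Itgb1, Itga3 and Lama5 are bright in every column, and the columns G7 and control 2 are darker than the rest in the rows of Lama3, Lamb3, Itgb4, Itga2 and Itgb6.

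Many members differed between control clones of 1 state. Among the 4 ciliated controls 15 of 22 tested members were called (12 of 15 integrins and 3 of 7 laminins), against 33.8% of all genes tested, and among the 4 non-ciliated controls 16 of 23 (11 of 15 and 5 of 8), against 25.8% (edgeR, test over all differences between the clones, with the range of fitted values at least 1 on the log2 scale). The median range between control clones was 1.89 for the tested members and 0.73 for all genes on the log2 scale in ciliated cells, and 1.78 and 0.61 in non-ciliated cells. Without G7 the count in ciliated controls was 6, against 17.9% of all genes, and without control 2 the count in non-ciliated controls was 7, against 14.1%. With the 5 libraries that stand apart left out the counts were 17 and 18. No share of all genes is given here for that setting, so these counts are not read as particular to the members. These RNA levels come from bulk samples, in which fewer cells of a type and less RNA per cell cannot be told apart.

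The laminin genes Lama3 and Lamb3 had their lowest levels in G7 and in control 2, Lama3 at under 1 CPM in both and Lamb3 at under 1 CPM in G7. Lama3 (the alpha chain) had 69.3 ± 2.504 CPM in D8, 25.6 ± 0.359 in H12, 118 ± 22.2 in A4 and 0.452 ± 0.148 in G7 in ciliated controls, and 61.8 ± 14.3 CPM in AB, 40.9 ± 3.56 in control 1, 0.678 ± 0.119 in control 2 and 50.7 ± 2.18 in control 3 in non-ciliated controls. Its level was 42.6 ± 3.17 CPM in Wdr34 clone 1, 16.8 ± 0.773 in Wdr34 clone 3 and 58.8 ± 5.38 in the Wdr60 clone in ciliated mutants and 12.6 ± 0.701 CPM in the Wdr34 clone and 34.9 ± 2.42 in the Wdr60 clone in non-ciliated mutants, so that every mutant clone lay above both of the low controls. Lamb3, the beta chain (chr1:193294353-193343878, plus strand, GRCm38), had 77.5 ± 6.35 CPM in D8, 72.8 ± 7.81 in H12, 95.4 ± 19.4 in A4 and 0.581 ± 0.325 in G7 in ciliated controls. In non-ciliated controls it had 112 ± 2.81 CPM in AB, 93.2 ± 2.93 in control 1, 7.29 ± 1.46 in control 2 and 108 ± 1.93 in control 3. The mean of the other 3 controls was 141 times that of G7 and 14.3 times that of control 2. Among mutants Lamb3 was 72.8 ± 3.396 CPM in Wdr34 clone 1, 31.1 ± 2.61 in Wdr34 clone 3 and 76.98 ± 12.01 in the Wdr60 clone in ciliated cells and 102 ± 7.89 CPM in the Wdr34 clone and 107 ± 14.96 in the Wdr60 clone in non-ciliated cells. In both genes, G7 and control 2 lay below every other clone of their state, and the Wdr34 clone 3 had the lowest level of the ciliated mutants.

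Both chains of the hemidesmosome integrin alpha6beta4 were low in the same clones. Itgb4 (chr11:115974725-116008412, plus strand) had 161 ± 14.3 CPM in D8, 210.3 ± 11.8 in H12, 197 ± 25.3 in A4 and 20.9 ± 1.96 in G7 in ciliated controls and 131 ± 15.04 CPM in AB, 80.98 ± 3.26 in control 1, 5.695 ± 0.432 in control 2 and 119 ± 1.903 in control 3 in non-ciliated controls, which put the other controls 9.04 times above G7 and 19.4 times above control 2. Ciliated mutants had 169 ± 6.62 CPM in Wdr34 clone 1, 52.4 ± 4.78 in Wdr34 clone 3 and 197 ± 21.6 in the Wdr60 clone and non-ciliated mutants 82.2 ± 3.93 CPM in the Wdr34 clone and 98.6 ± 8.56 in the Wdr60 clone. Itga6 was 23.5 CPM in G7 against 82.2 to 166 in the other ciliated controls, and 42.8 CPM in control 2 against 135 to 159. Here the Wdr34 clone 3 again lay between the groups, with 47.8 ± 2.89 CPM. Itga3 (chr11:95044475-95076844, minus strand) had 968 ± 79.1 CPM in D8, 379 ± 19.6 in H12, 999 ± 287 in A4 and 219.5 ± 8.89 in G7 in ciliated and 1654 ± 111 CPM in AB, 1914 ± 14.2 in control 1, 567 ± 9.003 in control 2 and 1584 ± 65.3 in control 3 in non-ciliated controls. In mutants it had 451 ± 8.78 CPM in Wdr34 clone 1, 395 ± 20.3 in Wdr34 clone 3 and 379.8 ± 56.8 in the Wdr60 clone in ciliated and 1725 ± 44.96 CPM in the Wdr34 clone and 1165 ± 109 in the Wdr60 clone in non-ciliated cells. G7 and control 2 were the lowest clones of their state for Itga3 as well.

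**Figure D2:**
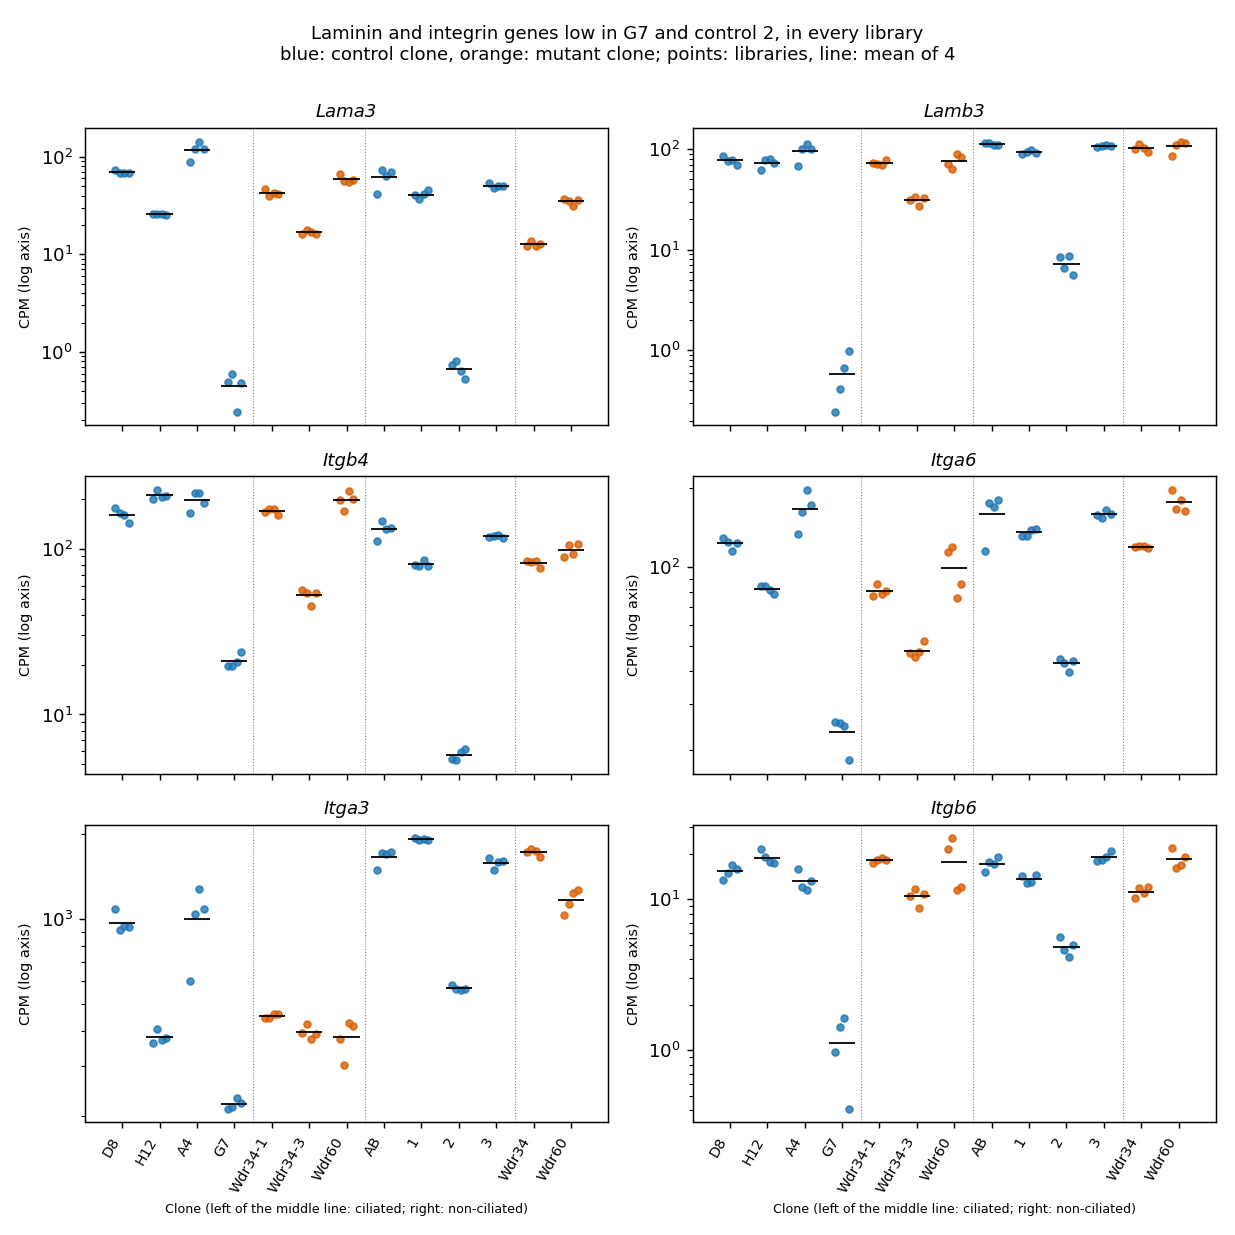
CPM on log axes (each panel with its own scale) of 6 genes in every library, by clone, with ciliated clones left and non-ciliated clones right of the middle dotted line; points are libraries, lines the mean of 4 libraries, blue controls and orange mutants. In all 6 panels the libraries of G7 lie below every other ciliated library and those of control 2 below every other non-ciliated library.

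Further chains of epithelial and leukocyte integrins were lowest in G7 and control 2. Itgb6, whose product pairs with alpha v and activates TGF-beta in epithelia, was 1.11 ± 0.546 CPM in G7 and 4.83 ± 0.623 CPM in control 2, against 13.2 to 18.9 and 13.7 to 19.04 CPM in the other controls. Itga2, a collagen receptor chain, had 1 count in the 4 libraries of G7 together and 3 in those of control 2. Its levels were 2.66 ± 0.454 CPM in D8, 7.82 ± 1.88 in H12, 2.63 ± 1.8 in A4 and 0.0149 ± 0.0298 in G7 in ciliated controls, 7.33 ± 3.95 CPM in AB, 1.396 ± 0.143 in control 1, 0.0400 ± 0.0487 in control 2 and 8.55 ± 0.528 in control 3 in non-ciliated controls, 8.63 ± 2.56 CPM in Wdr34 clone 1, 0.0941 ± 0.0728 in Wdr34 clone 3 and 3.98 ± 1.39 in the Wdr60 clone in ciliated mutants and 3.71 ± 0.456 CPM in the Wdr34 clone and 1.304 ± 0.560 in the Wdr60 clone in non-ciliated mutants. The Wdr34 clone 3 had 7 counts in all and was the only mutant clone near the level of G7. Itgb2, the beta chain of leukocyte integrins, was low throughout, with 2.12 ± 0.760 CPM in D8, 0.411 ± 0.0665 in H12, 0.740 ± 0.258 in A4 and 0 ± 0 in G7 in ciliated controls and 1.85 ± 0.270 CPM in AB, 1.59 ± 0.226 in control 1, 0.114 ± 0.157 in control 2 and 4.496 ± 0.292 in control 3 in non-ciliated controls. Mutants had 0.176 ± 0.112 CPM in Wdr34 clone 1, 0.406 ± 0.275 in Wdr34 clone 3 and 1.497 ± 0.341 in the Wdr60 clone in ciliated and 0.685 ± 0.176 CPM in the Wdr34 clone and 0.876 ± 0.266 in the Wdr60 clone in non-ciliated cells. In total, 9 of the 23 members tested over both states (among them Itga2, Itga3, Itga6, Itgb2, Itgb4, Itgb6, Lama3 and Lamb3) lay below every other clone of the state both in G7 and in control 2, and 4 (Itga1, Itga9, Lamb2 and Lamc1) lay above every other clone in both. Of all genes tested 15.3% were lowest in both of these clones and 11.6% highest in both. Whether G7 and control 2 are separate clones, or 1 clone sequenced in both states, is not given in the labels, so their likeness is not counted as seen in 2 independent clones. These counts are a description of clones picked for standing apart, and carry no test.

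Itga1, Itga7 and Itga9 moved the other way. Itga1, the alpha chain of a collagen IV receptor (chr13:114958079-115101964, minus strand), had 35.95 ± 1.87 CPM in D8, 21.5 ± 3.405 in H12, 22.7 ± 2.597 in A4 and 272 ± 52.1 in G7 in ciliated controls and 4.04 ± 1.099 CPM in AB, 18.03 ± 0.814 in control 1, 65.98 ± 2.67 in control 2 and 16.1 ± 1.67 in control 3 in non-ciliated controls. The level in G7 was 10.2 times the mean of the other ciliated controls, and that in control 2 was 5.18 times the mean of the other non-ciliated controls. Itga7, a laminin receptor chain best known from muscle (chr10:128933421-128958286, plus strand), had 8.798 ± 0.745 CPM in D8, 7.72 ± 1.03 in H12, 8.96 ± 1.73 in A4 and 17.1 ± 2.38 in G7 in ciliated controls and 11.6 ± 1.06 CPM in AB, 10.3 ± 1.01 in control 1, 26.6 ± 2.37 in control 2 and 7.85 ± 0.348 in control 3 in non-ciliated controls. Itga9, a receptor chain for tenascin C and osteopontin, was at most 0.888 CPM in the ciliated controls other than G7 and at most 0.0723 in the non-ciliated controls other than control 2. Its levels were 0.888 ± 0.569 CPM in D8, 0.0520 ± 0.0445 in H12, 0 ± 0 in A4 and 4.65 ± 0.348 in G7 in ciliated controls, 0.0256 ± 0.0297 CPM in AB, 0.0723 ± 0.0727 in control 1, 0.820 ± 0.438 in control 2 and 0 ± 0 in control 3 in non-ciliated controls, 0.0566 ± 0.0776 CPM in Wdr34 clone 1, 0.938 ± 0.183 in Wdr34 clone 3 and 0.0290 ± 0.0580 in the Wdr60 clone in ciliated mutants and 0.0131 ± 0.0262 CPM in the Wdr34 clone and 0 ± 0 in the Wdr60 clone in non-ciliated mutants. For all 3 genes the Wdr34 clone 3 was the highest of the ciliated mutants.

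The laminin-511 genes and Itgb1 stayed within a narrower range of levels than Lama3 and Lamb3. Lama5 had 916 ± 80.3 CPM in D8, 589 ± 30.97 in H12, 932 ± 260.4 in A4 and 479 ± 65.6 in G7 in ciliated controls and 732 ± 176 CPM in AB, 613 ± 42.8 in control 1, 491 ± 17.7 in control 2 and 805 ± 37.5 in control 3 in non-ciliated controls. Its level was 546 ± 32.7 CPM in Wdr34 clone 1, 389 ± 46.8 in Wdr34 clone 3 and 631 ± 54.9 in the Wdr60 clone in ciliated mutants and 566 ± 17.6 CPM in the Wdr34 clone and 672 ± 130.3 in the Wdr60 clone in non-ciliated mutants. The lowest clone was the Wdr34 clone 3 in ciliated and control 2 in non-ciliated cells. Lamb1 had 503 ± 28.1 CPM in D8, 428 ± 8.86 in H12, 409.9 ± 56.2 in A4 and 579 ± 54.9 in G7 in ciliated and 432 ± 25.4 CPM in AB, 554 ± 14.1 in control 1, 506 ± 10.4 in control 2 and 472 ± 22.2 in control 3 in non-ciliated controls. Mutants had 392 ± 9.25 CPM in Wdr34 clone 1, 479.7 ± 23.6 in Wdr34 clone 3 and 429 ± 24.6 in the Wdr60 clone in ciliated and 478 ± 12.6 CPM in the Wdr34 clone and 364 ± 18.9 in the Wdr60 clone in non-ciliated cells. For Lamb1 G7 was the highest ciliated clone and the Wdr60 clone the lowest non-ciliated clone, without a gap to their neighbours of the kind seen for Lama3 and Lamb3. Lamc1 was 231 ± 10.5 CPM in D8, 186 ± 9.38 in H12, 237 ± 59.3 in A4 and 314 ± 44.6 in G7 in ciliated controls, 249 ± 71.4 CPM in AB, 246 ± 6.74 in control 1, 301 ± 6.503 in control 2 and 209 ± 13.02 in control 3 in non-ciliated controls, 179 ± 8.77 CPM in Wdr34 clone 1, 277 ± 30.4 in Wdr34 clone 3 and 209 ± 30.5 in the Wdr60 clone in ciliated mutants and 219 ± 5.24 CPM in the Wdr34 clone and 250.4 ± 8.14 in the Wdr60 clone in non-ciliated mutants. For Lamc1 replicate 1 of AB and of A4, libraries that stand apart, were the lowest of their clones, at 142 and 150.0 CPM. All 3 genes had an adjusted p under 0.05 among the controls of both states (edgeR). So did 10627 of 12678 genes tested in ciliated and 9957 of 12388 in non-ciliated controls. The 3 genes stayed below the limit on the fold change. Their ranges were 0.53 to 0.93 on the log2 scale in ciliated and 0.34 to 0.69 in non-ciliated cells. Lama5 passed that limit, and was called, among the ciliated controls without replicate 1, without replicate 3 and without the libraries that stand apart.

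Itgb1 (chr8:128685654-128733579, plus strand) had 1290 ± 62.3 CPM in D8, 854 ± 17.7 in H12, 1220 ± 158 in A4 and 1202 ± 109 in G7 in ciliated controls and 1125 ± 86.4 CPM in AB, 1603 ± 62.98 in control 1, 1279 ± 22.1 in control 2 and 1357 ± 41.6 in control 3 in non-ciliated controls. Its level was 978 ± 10.4 CPM in Wdr34 clone 1, 1130 ± 35.6 in Wdr34 clone 3 and 1019 ± 140.3 in the Wdr60 clone in ciliated mutants and 1387 ± 29.3 CPM in the Wdr34 clone and 1183 ± 167 in the Wdr60 clone in non-ciliated mutants. Itgb5 was 127 ± 2.13 CPM in D8, 235 ± 4.35 in H12, 154 ± 15.8 in A4 and 167 ± 9.12 in G7 in ciliated controls, 111 ± 10.7 CPM in AB, 124 ± 6.24 in control 1, 164 ± 1.74 in control 2 and 114 ± 3.08 in control 3 in non-ciliated controls, 211 ± 7.33 CPM in Wdr34 clone 1, 147 ± 6.02 in Wdr34 clone 3 and 224 ± 23.5 in the Wdr60 clone in ciliated mutants and 114 ± 5.52 CPM in the Wdr34 clone and 112 ± 15.8 in the Wdr60 clone in non-ciliated mutants. Neither gene was called among the controls of either state, with ranges of 0.57 and 0.92 on the log2 scale in ciliated cells and 0.49 and 0.57 in non-ciliated cells. Itga5 ranged from 13.9 CPM in G7 to 53.9 in control 3, and Lamb2 from 42.8 CPM in control 1 to 154 in G7. Itgav, the alpha chain that Itgb5, Itgb6 and Itgb8 share and which the naming rule leaves out, lay between 159 and 269 CPM in all 13 clones. Of the 6 integrin alpha genes named by letters, only Itgav and Itgae were tested, and 0 were called in any comparison made here (edgeR; DESeq2 called 0 in ciliated and in non-ciliated mutants, and 1 of the 2 had an unadjusted p under 0.05 in each).

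**Figure D3:**
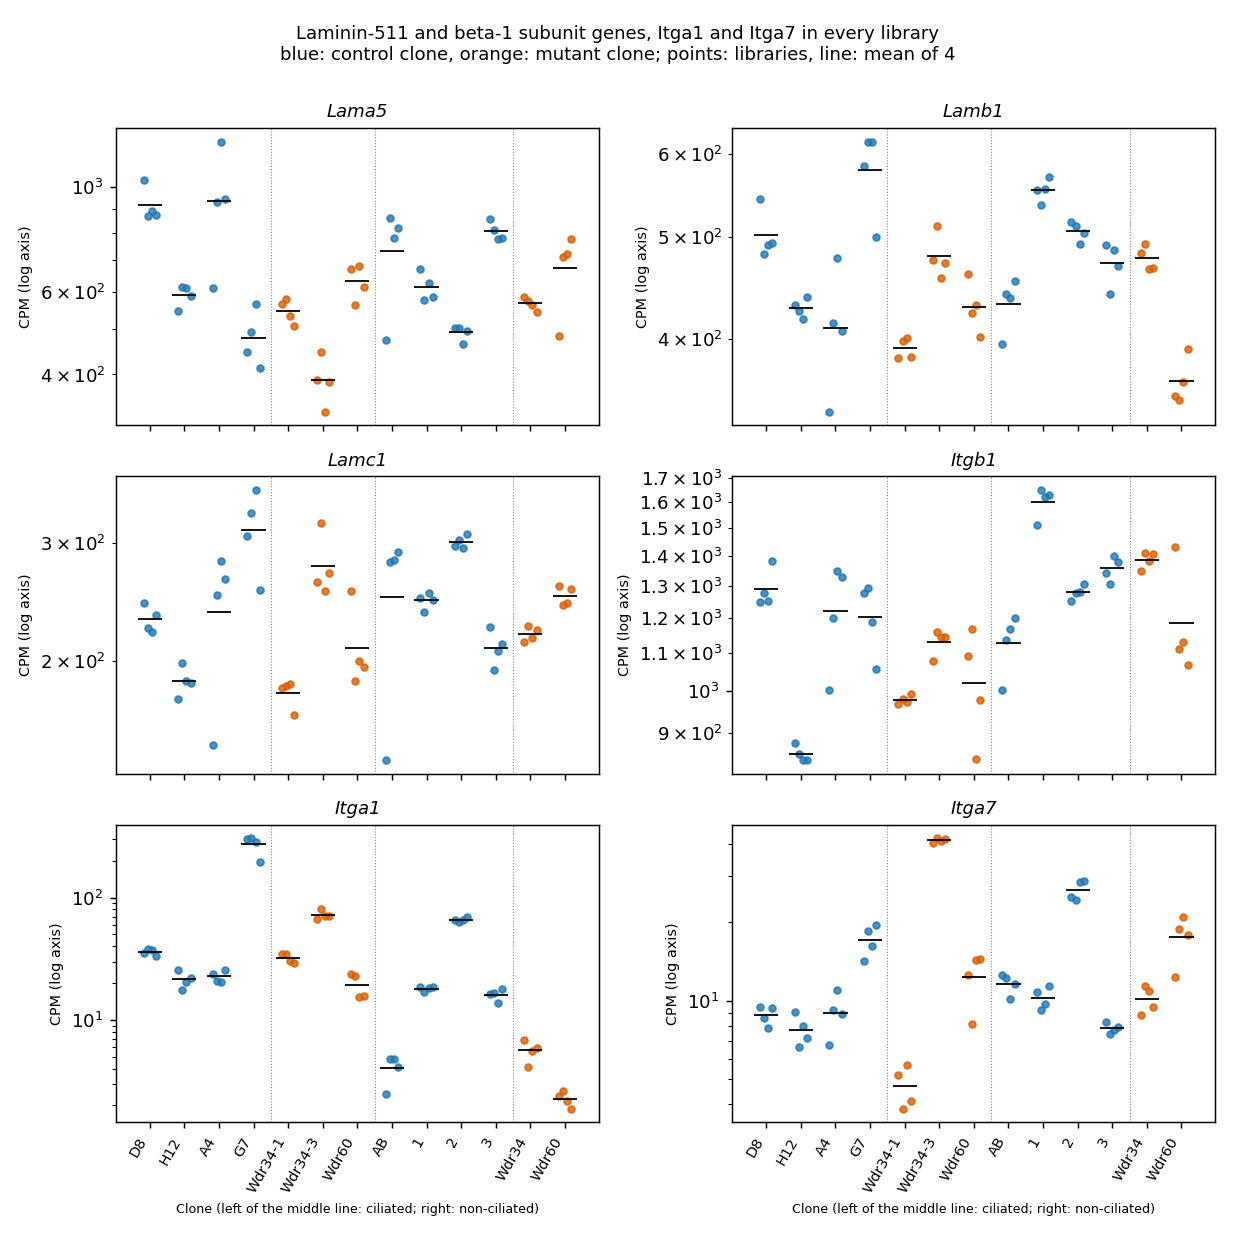
CPM on log axes (each panel with its own scale) of Lama5, Lamb1, Lamc1, Itgb1, Itga1 and Itga7 in every library, by clone; points are libraries, lines the mean of 4 libraries, blue controls and orange mutants. Lama5, Lamb1, Lamc1 and Itgb1 span a narrow range in all clones, whereas Itga1 is highest in G7 and in control 2 within each state, and Itga7 is highest in the Wdr34 clone 3 and in control 2.

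Several epithelial markers had low levels in the same clones. Cdh1, which encodes E-cadherin, was 14.4 ± 2.98 CPM in G7 and 4.22 ± 0.566 CPM in control 2, against 242 to 649 CPM in the other 11 clones. Epcam was 13.5 ± 1.34 and 2.86 ± 0.501 CPM in these clones, against 183 to 836 CPM elsewhere. Krt7, Krt8 and Krt18, keratins of simple epithelia, were at 3.65, 26.3 and 67.5 CPM in G7 and at 3.76, 41.02 and 112 CPM in control 2. In the Wdr34 clone 3 they were at 62.5, 76.7 and 148 CPM, and at 265 CPM or more in the other 10 clones. Over the 14 collecting duct and tubule markers the summed level was 1696 CPM in G7, 1008 in control 2 and 1833 in the Wdr34 clone 3, against 3050 to 4621 CPM in the other clones. Cdh16, a kidney cadherin, Pax2 and Pax8 were by contrast at their highest within each state in G7 and control 2, at 841, 309.5 and 419 CPM in G7 and at 266, 277 and 299.9 CPM in control 2. In the Wdr34 clone 3 the list also went both ways against ciliated controls (edgeR). Krt8 and Krt18 were called lower, at -2.81 ± 0.96 and -2.345 ± 0.80 on the log2 scale, and Gata3 higher, at 2.83 ± 0.63. Gata3 and Scnn1a were also called among the controls of both states, and Aqp3 among the non-ciliated controls. The 8 fibroblast markers summed to 1.38 to 5.67 CPM in 12 clones and to 31.7 CPM in the Wdr34 clone 3, where Dcn alone gave 29.2 CPM. The leukocyte and muscle markers summed to at most 5.55 and 0.981 CPM in any clone, and the 3 podocyte markers to 14.98 CPM in G7, 28.1 in control 2 and 61.99 to 137 CPM elsewhere. The highest muscle sum was in the Wdr34 clone 3. The muscle marker Des was called higher there, by 2.31 ± 0.57 on the log2 scale against ciliated controls (edgeR). In the non-ciliated Wdr34 clone Des was called lower, at -2.91 ± 0.67. Des was the only 1 of the 4 muscle markers tested. It was also called among the controls themselves, with ranges of 2.48 in ciliated and 1.19 in non-ciliated controls on the log2 scale. The part of these markers in the levels of the integrin and laminin genes was not tested.

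Ligand genes of the basement membrane also differed between control clones. Of 26 genes for basement membrane components and other integrin ligands, 16 of 19 tested were called among the ciliated controls, against 33.8% of all genes, and 15 of 20 among the non-ciliated controls, against 25.8%. Nid2, which encodes a nidogen that links laminin to collagen IV, was 544 ± 25.98 CPM in G7 and 257 ± 5.64 in control 2, against 4.04 to 36.99 CPM in the other controls. Tnc (tenascin C, a ligand of the Itga9 product) was 255 ± 35.1 and 178 ± 3.82 CPM in these clones and 2.95 to 41.95 CPM in the other controls. Postn (periostin) was 29.3 and 7.48 CPM, and at most 0.167 CPM in the other controls. Col4a3, a collagen IV chain of the mature kidney basement membrane, went with Lama3 and Lamb3, at 6.68 CPM in G7 and 4.26 in control 2 against 61.5 to 193 CPM. Among 27 genes of the adhesion machinery 25 were tested, and 13 were called among ciliated and 8 among non-ciliated controls, the latter a share near the 25.8% of all genes. Fermt1 (kindlin-1, an epithelial activator of beta1 integrins) was 0.161 and 0.171 CPM in G7 and control 2 against 16.04 to 56.3 CPM in the other controls. Of 12 genes for other laminin receptors and hemidesmosome partners, 11 were tested; 6 were called among ciliated controls, against 33.8% of all genes, and 4 among non-ciliated controls, against 25.8%. Dag1 (dystroglycan) was 1148 and 932 CPM against 262 to 728 CPM in the other controls. Plec (plectin, the cytoskeletal linker of hemidesmosomes) was among the calls of the ciliated controls, with its highest level in A4, and lay between 326 and 798 CPM over all 13 clones.

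Promoter sequence was read for the members that were lowest or highest in both clones. RefSeq windows of 300 bases (250 before and 50 after a start, GRCm38.p6) were searched for 20 of the 31 members, which have 23 such windows. The E-box CACCTG, which ZEB and SNAIL repressors of epithelial genes bind, was searched with the AP-1 motif TGANTCA and the GC box GGGCGG on both strands, and no match overlapped another in the windows shown. Lamb3 and Itgb6 have 2 windows each; those of Lamb3 overlap and lie inside the annotated gene, downstream of its 5′ end at position 193294353, for which no window was read. They are shown with Itga2 (all low in G7 and control 2) and with Itga1 (high in both). Capitals mark the matches.
Lamb3, upstream window (chr1:193301744-193302043, plus strand): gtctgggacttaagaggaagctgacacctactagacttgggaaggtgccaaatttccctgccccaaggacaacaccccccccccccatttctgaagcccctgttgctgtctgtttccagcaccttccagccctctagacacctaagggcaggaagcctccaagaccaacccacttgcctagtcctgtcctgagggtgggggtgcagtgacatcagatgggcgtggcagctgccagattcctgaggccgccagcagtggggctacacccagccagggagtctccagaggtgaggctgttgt
Lamb3, downstream window (chr1:193301993-193302292, plus strand): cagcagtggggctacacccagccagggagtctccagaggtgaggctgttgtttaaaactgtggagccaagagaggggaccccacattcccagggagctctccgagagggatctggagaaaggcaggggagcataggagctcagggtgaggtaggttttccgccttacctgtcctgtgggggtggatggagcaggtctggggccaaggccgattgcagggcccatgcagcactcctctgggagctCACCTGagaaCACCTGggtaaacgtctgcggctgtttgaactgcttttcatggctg
Itga2 (chr13:114932051-114932350, minus strand): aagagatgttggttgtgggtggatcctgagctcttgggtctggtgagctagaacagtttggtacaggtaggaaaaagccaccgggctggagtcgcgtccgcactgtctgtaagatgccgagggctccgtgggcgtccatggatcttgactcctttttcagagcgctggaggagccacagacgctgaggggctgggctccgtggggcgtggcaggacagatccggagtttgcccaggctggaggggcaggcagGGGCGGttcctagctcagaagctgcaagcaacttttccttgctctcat
Itgb6, upstream window (chr2:60722554-60722853, minus strand): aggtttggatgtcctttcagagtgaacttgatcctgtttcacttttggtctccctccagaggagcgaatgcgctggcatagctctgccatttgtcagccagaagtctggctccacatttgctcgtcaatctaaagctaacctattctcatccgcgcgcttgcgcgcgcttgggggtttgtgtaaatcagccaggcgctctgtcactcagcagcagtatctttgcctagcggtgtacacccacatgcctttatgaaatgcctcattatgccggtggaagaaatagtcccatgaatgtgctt
Itgb6, downstream window (chr2:60673644-60673943, minus strand): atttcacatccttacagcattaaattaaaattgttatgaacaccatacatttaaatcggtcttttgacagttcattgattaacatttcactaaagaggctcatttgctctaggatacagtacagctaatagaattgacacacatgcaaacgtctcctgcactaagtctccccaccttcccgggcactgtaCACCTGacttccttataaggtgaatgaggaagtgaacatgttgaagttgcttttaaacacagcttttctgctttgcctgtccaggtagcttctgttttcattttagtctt
Itga1 (chr13:115101915-115102214, minus strand): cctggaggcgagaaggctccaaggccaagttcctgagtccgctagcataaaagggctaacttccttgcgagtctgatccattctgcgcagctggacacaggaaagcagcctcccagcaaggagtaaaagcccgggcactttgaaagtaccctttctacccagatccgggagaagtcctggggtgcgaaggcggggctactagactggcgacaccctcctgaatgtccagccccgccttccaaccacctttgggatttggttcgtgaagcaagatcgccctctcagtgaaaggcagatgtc
CACCTG was found 2 times in the downstream Lamb3 window and 1 time in the downstream Itgb6 window, and GGGCGG 1 time in the Itga2 window, while the other windows printed held none of the 3 motifs. Among the 9 members lowest in both clones, 4 had 7 windows, of which 3 held CACCTG, and among the 4 highest, 3 had 3 windows, of which 1 held it. GGGCGG was in 3 of the 7 and 0 of the 3 windows, and TGANTCA in 1 of the 7 and 1 of the 3. Of all 23 windows of members, 8 held CACCTG, 2 TGANTCA and 10 GGGCGG. Over all 32851 RefSeq windows of this length 20.2% held CACCTG, 7.81% TGANTCA and 35.7% GGGCGG. A match describes letters in these windows and is not a binding site.

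No member of the set was called in ciliated mutants against their controls. Of 31 members 21 passed the filter (14 integrins and 7 laminins), and 0 were called, against 0.644% of all genes tested (edgeR, 0 at a BH-adjusted p under 0.05 alone, 6 at an unadjusted p under 0.05, and 0 called by DESeq2). Clone means of mutants and controls overlapped for all 21, where 1.85% of all genes did not overlap. The median log2 fold change was -0.12 for the members and -0.01 for all genes. For Itga1 the estimate was -1.11 ± 0.52 on the log2 scale (± SE, edgeR, BH-adjusted p = 0.244), with 32.3 ± 2.85 CPM in Wdr34 clone 1, 72.2 ± 5.85 in Wdr34 clone 3 and 19.4 ± 4.397 in the Wdr60 clone in the mutants, and 0.63 without G7, whose level lay above all mutants. Itga7 was 4.71 ± 0.861 CPM in Wdr34 clone 1, 41.2 ± 0.677 in Wdr34 clone 3 and 12.4 ± 2.93 in the Wdr60 clone in the mutants; the lowest and the highest clone of the state were both mutants. Its log2 fold change over the 3 mutants was 0.86 ± 0.34 (edgeR, adjusted p = 0.161). Without the Wdr34 clone 1 or without G7 Itga7 was called, and without the Wdr34 clone 3 its log2 fold change was -0.32. The exact permutation p over clones was 0.800 for Itga1 and 0.686 for Itga7. Among partner genes 0 of 25 of the adhesion machinery (edgeR; 5 at an unadjusted p under 0.05, 0 by DESeq2), 0 of 17 of the ligand list (2 and 1) and 0 of 11 of the other laminin receptors (3 and 0) were called. By clone, edgeR called 0 of 19 ligand genes in the Wdr34 clone 1 and 0 of 19 in the Wdr60 clone, where DESeq2 called 3 and 5. In the Wdr34 clone 3 edgeR called 1 of 19, against 5.80% of all genes, and DESeq2 called 2. The share of all genes that DESeq2 called is not given here. The edgeR call was Spp1 (osteopontin, a ligand of alpha v integrins), higher by 2.22 ± 0.43 on the log2 scale. It had 91.97 CPM in Wdr34 clone 1, 1793 in Wdr34 clone 3 and 134 in the Wdr60 clone in the mutants against 421 CPM in D8, 84.4 in H12, 385 in A4 and 629 in G7 in the controls.

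Clone by clone, the members that edgeR called in ciliated mutants with all libraries were integrins, and Itga7 went in opposite directions. In the Wdr34 clone 3, 3 of 22 tested members were called against 5.80% of all genes: Itga7 was higher by 1.93 ± 0.23 on the log2 scale (edgeR, BH-adjusted p = 4.97e-06), Itgb8 was higher by 1.14 ± 0.19 (adjusted p = 2.65e-04), and Itga2 was lower (adjusted p = 0.0249), with 7 counts in its 4 libraries. Itgb8, whose product activates TGF-beta with alpha v, had 13.5 ± 1.06 CPM in Wdr34 clone 1, 21.6 ± 1.096 in Wdr34 clone 3 and 8.23 ± 2.84 in the Wdr60 clone in ciliated mutants and 8.303 ± 0.469 CPM in D8, 10.5 ± 1.07 in H12, 6.97 ± 1.48 in A4 and 12.9 ± 2.31 in G7 in ciliated controls, so that the Wdr34 clone 3 lay above the other clones. Lama5 in that clone had 389 ± 46.8 CPM, the lowest of all 13 clones, with a log2 fold change of -0.92 ± 0.24 (edgeR, BH-adjusted p = 0.00992), short of the limit on the fold change; without the libraries that stand apart it was called. DESeq2 also called Itgb4 in this clone. At the adjusted p alone (edgeR) 4 of 22 members passed, and 2609 of 12553 genes tested. Without G7 as a control 9 members were called in this clone, against 13.1% of all genes: Itga1, Itga7 and Itgb8 higher, and Itga2, Itga6, Itgb4, Lama3, Lama5 and Lamb3 lower. In the Wdr34 clone 1, 1 of 22 was called against 0.679%, Itga7, lower by 1.18 ± 0.29 on the log2 scale (edgeR, BH-adjusted p = 0.0325). That call was lost without D8, without G7 (where Itgb2 was called in its place), with the replicate block, with every gene of at least 1 count kept and without any 1 replicate number. The Itga2 call in the Wdr34 clone 3 was lost without H12 and without any 1 replicate number. In the Wdr60 clone 0 of 22 were called against 1.93% (edgeR; 5 at an unadjusted p under 0.05, and 1 called by DESeq2). These comparisons share the 4 control clones, and a single mutant clone does not separate genotype from clone.

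**Figure D4:**
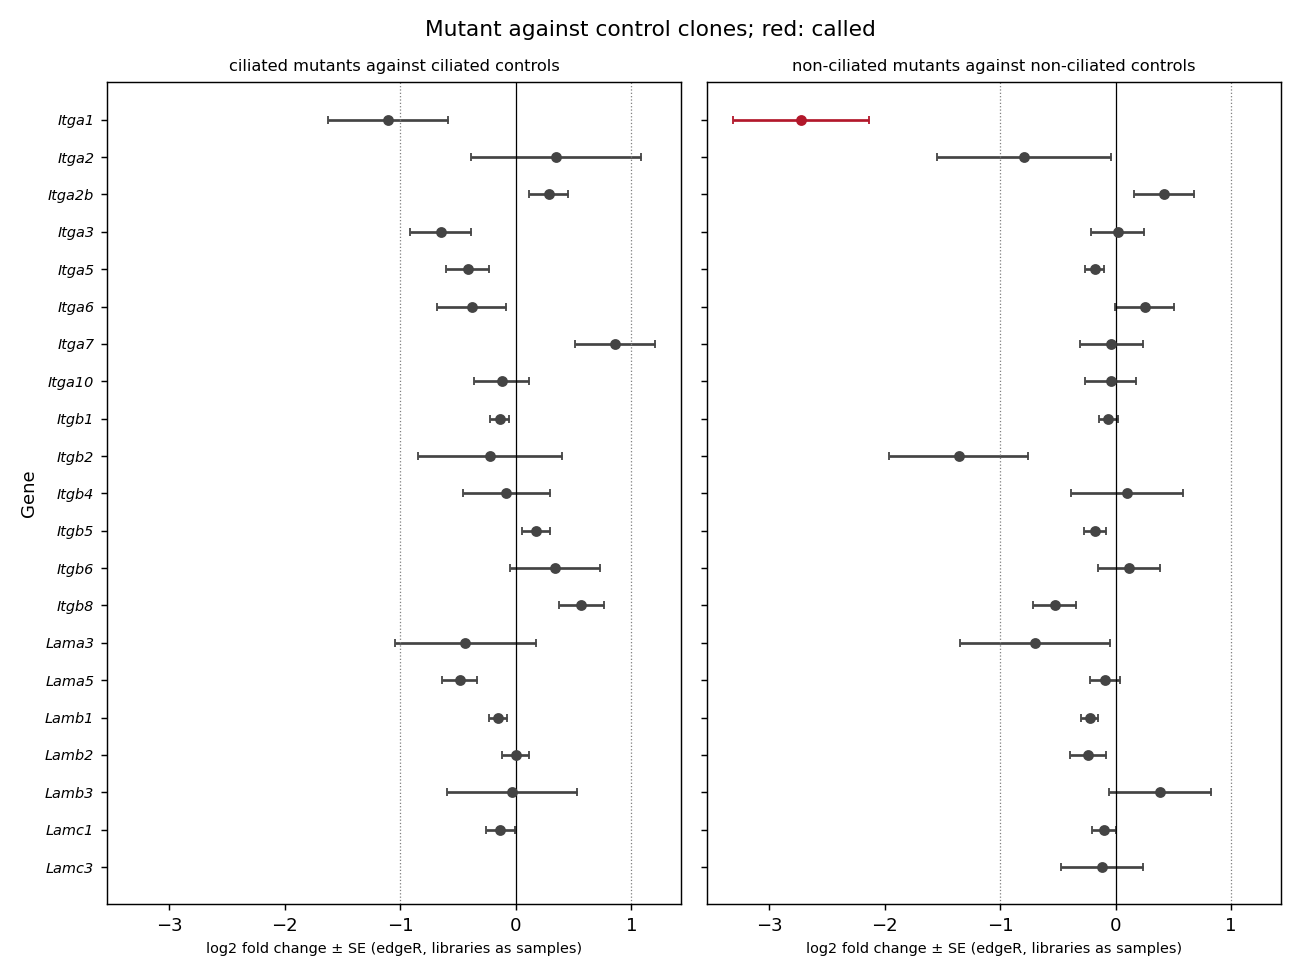
Log2 fold change ± SE (edgeR, libraries as samples) of tested members in ciliated mutants against ciliated controls (left) and non-ciliated mutants against non-ciliated controls (right); dotted lines mark -1 and 1, and red marks a call. Itga1 in non-ciliated cells is the only gene in red.

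In non-ciliated mutants Itga1 was the only member called of 22 tested (14 integrins and 8 laminins), against 3.06% of all genes. It had 5.64 ± 1.15 CPM in the Wdr34 clone and 2.27 ± 0.307 in the Wdr60 clone in the mutants and 4.04 ± 1.099 CPM in AB, 18.03 ± 0.814 in control 1, 65.98 ± 2.67 in control 2 and 16.1 ± 1.67 in control 3 in the controls, and its log2 fold change was -2.73 ± 0.59 (edgeR, BH-adjusted p = 0.00333). The control AB lay between the mutant clones, so that the groups overlapped, and the exact permutation p over clones was 0.267. With the libraries of each clone summed the adjusted p was 0.976, and with the clone as a block (voomLmFit) 0.508. Over all alternatives the adjusted p ranged from 9.43e-06 to 0.976, and without the Wdr60 clone Itga1 was not called. Without control 2 the members called were Itga1, Itgb2 and Lama3, and the share of all genes called in that fit is not given here. Clone means of mutants and controls overlapped for all 22 members, where 13.0% of all genes tested did not overlap. Lamb1 had an adjusted p of 0.0455 at a log2 fold change of -0.22 ± 0.08, and Itgb3, which failed the filter, had 0.136 CPM in the Wdr34 clone and 0.0442 in the Wdr60 clone in mutants and 0.218 CPM in AB, 0.290 in control 1, 0.389 in control 2 and 0.842 in control 3 in controls, without overlap but with at most 23 counts in a library. At the adjusted p alone 2 of 22 members passed, and 1803 of 12012 genes tested. The median log2 fold change of the members was -0.10, and that of all genes 0.00.

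By clone, Itga1 was called in the Wdr60 clone, 1 of 23 tested members against 3.41% of all genes, at a log2 fold change of -3.53 ± 0.89 (edgeR, BH-adjusted p = 0.0135). In that clone Itga2b, Itgb8 and Lamb1 had adjusted p-values under 0.05 at log2 fold changes of 0.96 ± 0.26, -0.81 ± 0.25 and -0.43 ± 0.08, below the limit on the fold change. At the adjusted p alone 4 of 23 members passed, and 1483 of 12371 genes tested. The count of calls was 3 without the libraries that stand apart, 4 without control 2, 3 without AB and 2 without replicate 1. Without replicate 2, 3 or 4 it was 0. The share of all genes called in these fits is not given here. In the Wdr34 clone 0 of 22 were called against 2.24% (edgeR, 1 at an unadjusted p under 0.05, and 1 called by DESeq2). The count was 1 without the libraries that stand apart or without AB (Itga1 in each case), and 2 without control 2 (Itgb2 and Lama3). No share of all genes is given here for these settings. Lama3 in this clone was 12.6 ± 0.701 CPM, below the controls other than control 2. Among partner genes, 5 of 18 tested basement membrane and ligand genes were called in non-ciliated mutants, against 3.06% of all genes, all lower: Nid2 (-5.23 ± 1.14 on the log2 scale), Col4a2 (-4.62 ± 1.06), Tnc (-3.24 ± 0.79), Nid1 (-2.64 ± 0.68) and Spp1 (-1.99 ± 0.45). Nid2 had 3.399 CPM in the Wdr34 clone and 0.560 in the Wdr60 clone in the mutants against 4.04 CPM in AB, 27.1 in control 1, 257 in control 2 and 7.26 in control 3 in the controls. Tnc had 6.97 CPM in the Wdr34 clone and 6.01 in the Wdr60 clone in the mutants against 2.95 CPM in AB, 41.95 in control 1, 178 in control 2 and 20.2 in control 3 in the controls, so that AB lay below both mutants. None of the 5 was called with the libraries of each clone summed (edgeR, adjusted p = 0.976 for each) or with the clone as a block (voomLmFit, adjusted p from 0.226 to 0.798). Without control 2 the log2 fold change of Nid2 was -2.68 and that of Tnc -1.74, Nid1 and Spp1 were also called, and Col4a2 failed the filter. Without the Wdr60 clone only Nid1 of the 5 was called, and Nid1 and Tnc lost their calls without the Wdr34 clone and without replicate 2, 3 or 4, as did Nid1 without control 3. Of the adhesion machinery 0 of 25 were called (edgeR; 10 at an unadjusted p under 0.05 and 0 by DESeq2) and of the other laminin receptors 0 of 11 (3 and 0). Parvb (beta-parvin, a partner of integrin-linked kinase) was higher in the Wdr60 clone of both states, at 5.88 CPM in ciliated and 2.31 CPM in non-ciliated cells against 0.210 to 1.35 and 0.203 to 0.838 CPM in controls, and it was the only one of the 25 tested called there, where 1.93% of all genes were called in ciliated and 3.41% in non-ciliated cells. In the non-ciliated Wdr34 clone 2 of 25 were called against 2.24%, both lower: Parvb, at 0.0789 CPM, and Tns2 (tensin 2, an adaptor that binds beta integrin tails), at 32.9 against 49.2 to 89.4 CPM in controls.

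The mutant effect differed between states for 1 of 23 members, Itgb8, where 1.19% of all genes were called. Its clone means in ciliated cells were 14.5 ± 6.76 CPM in mutants (SD over 3 clones) and 9.69 ± 2.62 in controls (4 clones), and in non-ciliated cells 5.89 ± 1.46 in mutants (2 clones) and 8.49 ± 2.29 in controls (4 clones). The interaction was 1.11 ± 0.28 on the log2 scale (edgeR, BH-adjusted p = 0.0239), ciliated minus non-ciliated. With the libraries of each clone summed the adjusted p was 0.9999, and with any replicate number left out no member was called. The Wdr34 clone 3 held the highest level of the 13 clones, 21.6 ± 1.096 CPM. Of the ciliated mutants, the Wdr60 clone, at 8.235 CPM, lay within the ciliated controls (6.97 to 12.95). Both Wdr34 clones lay above them, at 13.54 and 21.65 CPM. By the text of the study the glycine-to-serine clone was in the ciliated group only. State therefore cannot be told apart here from the make-up of the mutant groups, and this contrast was not fitted with a clone left out. Of the ligand list 2 of 20 were called for this difference, against 1.19% of all genes. These were Col4a2 at 4.63 ± 0.89 and Spp1 at 2.81 ± 0.76 on the log2 scale (ciliated minus non-ciliated). Among the ciliated mutants Spp1 was high in the Wdr34 clone 3 alone. In non-ciliated mutants against controls neither was called with the libraries of each clone summed (edgeR, adjusted p = 0.976 for each). Col4a2 failed the filter of that comparison without control 1 and without control 2.

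Between the states, 8 of 23 members were called among controls (6 of 15 integrins and 2 of 8 laminins), 4 higher and 4 lower in ciliated cells, against 12.2% of all genes tested. Groups of clone means did not overlap for 3 of the 23, Itga2b, Itga10 and Lamc3, against 22.6% of all genes, and these 3 were also the ones called with the libraries of each clone summed. Itga2b, known as the platelet fibrinogen receptor chain, was 7.899 ± 0.608 CPM in D8, 13.9 ± 1.93 in H12, 8.08 ± 1.102 in A4 and 6.37 ± 1.77 in G7 in ciliated controls and 4.64 ± 0.801 CPM in AB, 1.997 ± 0.631 in control 1, 3.81 ± 0.712 in control 2 and 3.35 ± 0.263 in control 3 in non-ciliated controls. Its log2 fold change was 1.40 ± 0.19 (edgeR, BH-adjusted p = 1.02e-08), with an exact permutation p of 0.0286, the smallest that 4 against 4 can give when the clones of both states are taken as independent, which the labels do not settle. Mutants had 8.93 ± 0.885 CPM in Wdr34 clone 1, 9.91 ± 0.460 in Wdr34 clone 3 and 14.6 ± 2.51 in the Wdr60 clone in ciliated and 2.52 ± 0.251 CPM in the Wdr34 clone and 6.75 ± 1.42 in the Wdr60 clone in non-ciliated cells, again without overlap. Itga10, a collagen receptor chain of cartilage, was 1.47 ± 0.201 CPM in D8, 1.71 ± 0.197 in H12, 0.611 ± 0.406 in A4 and 0.854 ± 0.346 in G7 in ciliated and 4.32 ± 0.752 CPM in AB, 2.13 ± 0.236 in control 1, 2.53 ± 0.287 in control 2 and 1.796 ± 0.222 in control 3 in non-ciliated controls. The log2 fold change was -1.21 ± 0.20 (edgeR, BH-adjusted p = 1.18e-06), and mutants had 1.06 ± 0.0611 CPM in Wdr34 clone 1, 1.02 ± 0.330 in Wdr34 clone 3 and 1.15 ± 0.342 in the Wdr60 clone in ciliated and 2.98 ± 0.418 CPM in the Wdr34 clone and 2.26 ± 0.700 in the Wdr60 clone in non-ciliated cells. Without AB the log2 fold change of Itga10 was -0.88 and it was not called. Lamc3, a minor laminin gamma chain, was 0.0868 ± 0.174 CPM in D8, 0.0122 ± 0.0244 in H12, 0.145 ± 0.0635 in A4 and 0 ± 0 in G7 in ciliated and 0.527 ± 0.190 CPM in AB, 1.83 ± 0.210 in control 1, 0.396 ± 0.194 in control 2 and 1.25 ± 0.270 in control 3 in non-ciliated controls. It was 0 ± 0 CPM in Wdr34 clone 1, 0.0147 ± 0.0295 in Wdr34 clone 3 and 0.0121 ± 0.0243 in the Wdr60 clone in ciliated and 0.962 ± 0.269 CPM in the Wdr34 clone and 0.870 ± 0.232 in the Wdr60 clone in non-ciliated mutants, so that every non-ciliated clone lay above every ciliated clone at a level of at most 34 counts in a library (edgeR, adjusted p = 1.99e-10). Itgb3, below the filter, also lay lower in all ciliated controls, at 0.0520 to 0.135 against 0.218 to 0.842 CPM.

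The other calls between states rested on overlapping clones. Itga3 was lower in ciliated controls, at a log2 fold change of -1.16 ± 0.23 (edgeR, BH-adjusted p = 2.04e-05) with an exact permutation p of 0.114, and the 3 ciliated mutants, at 379.8 to 451 CPM, all lay below the 2 non-ciliated mutants, at 1165 to 1725. That call was lost without G7, without H12, without control 1 and with clones summed. Itga1 was higher by 1.76 ± 0.46 (edgeR, BH-adjusted p = 9.94e-04), but its log2 fold change was 0.03 without G7. Itga9 (edgeR, BH-adjusted p = 0.00432) also lost its call without G7, and Itgb2 (adjusted p = 0.0340) lost it in 11 of 19 alternatives. Another 4 members passed the adjusted p alone, Itgb5 and Lamb2 higher in ciliated controls and Itga5 and Itgb1 lower, with log2 fold changes from -0.59 to 0.74. In all, 12 of 23 members had an adjusted p under 0.05, and 7760 of 12544 genes tested. Of the ligand list 7 of 20 were called against 12.2% of all genes, among them Tgfb1, which alpha v beta6 and beta8 activate, higher by 1.54 ± 0.10, and Fn1 (fibronectin), with a log2 fold change of -1.12 ± 0.27. Of the adhesion machinery 1 of 25 was called, a share below that of all genes: Actn1 (alpha-actinin), at -1.12 ± 0.12, and of the other laminin receptors 1 of 11, a share near it: Rpsa, at -1.29 ± 0.13; Rpsa also encodes a ribosomal protein.

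**Figure D5:**
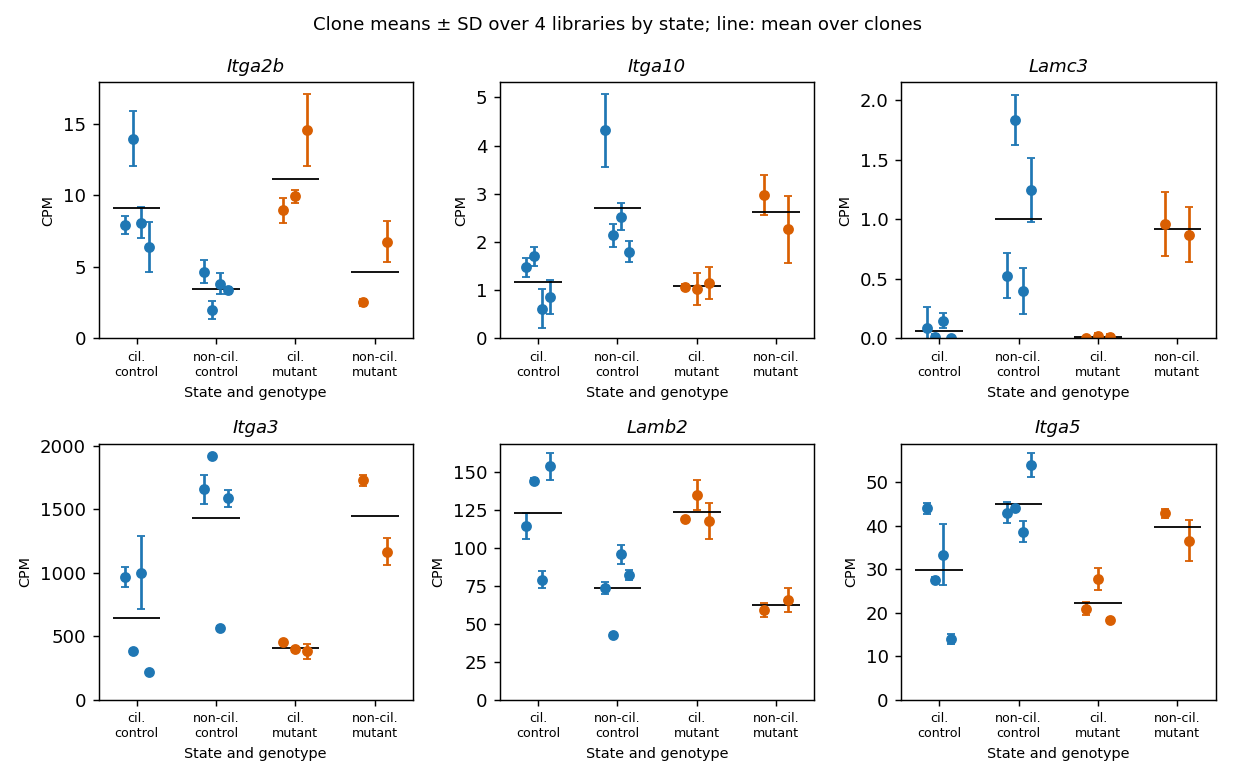
Clone means (points) ± SD over 4 libraries (bars, clipped at 0) and the mean over clones (lines) of 6 genes in CPM by state and genotype, each panel on its own linear axis from 0; blue controls and orange mutants. Itga2b, Itga10 and Lamc3 separate the control clones by state, while in Itga3 control 2 lies among the ciliated controls.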

How the data were processed

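RNA from 13 groups of a mouse kidney cell line, each a clone in 1 state, was sequenced in 4 technical replicate libraries each; a clone may occur in both states. Per the labels and the methods, the authors mapped reads to GRCm38 (mm10), counted them per gene with featureCounts and used DESeq2 1.18.1 in R 3.4.4; they deposited 1 table of raw counts per library, with 24421 gene symbols. Whether counting used strand or reads with several hits is not given in the sources used here. Groups were taken from the sample labels. Here, edgeR 4.0.16 (R 4.3.3) with limma 3.58.1 was run with TMM factors, filterByExpr and quasi-likelihood tests over libraries, separately per state for mutants against controls, per mutant clone and among controls, and over both states for controls and for the interaction. P-values were adjusted over all genes (Benjamini-Hochberg, 0.05), with a log2 fold change limit of 1 and a prior count of 2 for log2 CPM. Whole groups were permuted exactly, as if independent.

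The gene set and the partner and marker lists were chosen with earlier results of these data known. Values of 1 member that the counts include are not reported here. Values per clone were given by rule to members called in mutants or between states, called in at least 2 single-clone comparisons or not overlapping in mutants, to the 4 integrins and 4 laminins highest per kb, and to the 5 with the largest range among control clones (on the fitted log2 scale); of partner genes, to at most 5 a list with the largest changes among those called. Itga6, Itgb6, Itgb8, Itgb3, Itgav and Plec were added after their values were seen. Alternatives were RLE size factors, DESeq2 1.42.0, filters of at least 1 count in any and 10 counts in every library, summed libraries, voomLmFit with the clone as a block, a replicate block, each clone and each replicate number left out, and, chosen after seeing the data, the 5 libraries that stand apart left out. The fit of mutants against controls and the fit among clones were tested on simulated counts with known changes. In the former the simulated libraries were independent, without differences between clones. That test therefore cannot show how calls over libraries hold where clones differ. Promoters came from RefSeq (GRCm38.p6).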

Additional observations from a re-analysis of the deposited data

Results flagged for a closer look

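In groups of 4 to 10 samples, a value was taken as standing apart when its gap to the nearest other value exceeded Dixon's critical share of the range at 95%; chance alone does this in about 1 in 20 groups. Over the 4 control clones of a state this held for 3 of 46 groups of tested members: Itga1 in G7, at 272 CPM, Itga7 in G7, at 17.1 CPM, and Itga9 in control 2, at 0.820 CPM.

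Within clones, 1 of the 4 libraries stood apart in 26 of 299 groups (8.70%). In some of these groups only 1 library had any counts, which is flagged by construction. They were Itga2 in G7, Itga9 in the ciliated Wdr60 clone and the non-ciliated Wdr34 clone, and Lamc3 in D8, H12, the Wdr34 clone 3 and the ciliated Wdr60 clone. The 8.70% is therefore not read as an excess over chance. The number of the 23 tested members concerned was 3 in D8, 3 in H12, 2 in A4, 3 in G7, 1 in the ciliated Wdr34 clone 1, 1 in the Wdr34 clone 3, 2 in the ciliated Wdr60 clone, 5 in AB, 3 in control 1, 2 in the non-ciliated Wdr34 clone and 1 in the non-ciliated Wdr60 clone. In AB the library was replicate 1 in all 5 cases (Itga3 at 1488 CPM, Itga6 at 115, Itgb5 at 127, Itgb8 at 2.98 and Lamc1 at 142).

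The mutant effect on Itgb8 differed between the states by 1.11 on the log2 scale (ciliated minus non-ciliated, edgeR interaction, BH-adjusted p = 0.0239), and with clones summed the adjusted p was 0.9999.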

How the results depend on the processing

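Counts of members called moved with several settings, and their causes were not tested. Where no share of all genes is printed for a setting, a moved count is not read as a result about the members. In non-ciliated mutants against controls the count of 1 became 3 with every gene of at least 1 count kept, 0 with clones summed, 0 with voomLmFit, 2 at the adjusted p alone, and 0 to 3 when 1 clone or replicate number was left out. In ciliated mutants against controls the count of 0 became 0 to 1 when 1 was left out. With DESeq2 the count was 1 in the ciliated Wdr60 clone and 1 in the non-ciliated Wdr34 clone, each 0 with edgeR. For the Wdr34 clone 1 it was 0 with every gene of at least 1 count kept and 0 to 1 with 1 left out, and for the Wdr34 clone 3 it was 5 and 2 to 9. For the non-ciliated Wdr60 clone it was 2 and 0 to 4, and 3 without the libraries that stand apart; for the non-ciliated Wdr34 clone it was 1 without those libraries and 0 to 2 with 1 left out. Between states the count of 8 became 4 with at least 10 counts in every library (fewer genes are tested), 3 with clones summed, 5 with voomLmFit and 5 to 8 with 1 left out. For the interaction it was 0 with clones summed and 0 without any 1 replicate number. Among ciliated controls it was 6 to 17 and among non-ciliated controls 7 to 17 with 1 left out. The uncalled log2 fold change of Itga1 in ciliated mutants ranged from -1.77 to 0.63 and that of Itga7 from -0.32 to 1.32 with 1 clone or replicate number left out, both reversing.

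Of 249 alternative fits of the 15 called log2 fold changes, 199 stayed called, 50 kept the sign without a call and 0 reversed. Of 42 uncalled ones, 27 changed sign in at least 1 alternative. With the replicate block the count for the Wdr34 clone 1 was 0, and no other count of calls changed. By the median, replicate numbers did not pair libraries. The median correlation of deviations of same-numbered libraries was 0.0153 in ciliated (15 of 84 pairs over 0.1) and 0.0146 in non-ciliated cells (5 of 60). The highest was 0.550 in ciliated and 0.132 in non-ciliated cells. Replicate 1 was the library that stood apart in H12, A4, AB and the non-ciliated Wdr60 clone.

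The clone, not the library, is the unit that carries a genotype, and with 2 to 4 clones a group exact tests cannot go below 0.0286. Members with few counts (Itga2, Itga9, Itgb2, Lamc3) have wide errors at this depth.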
